A study of Mus musculus with 24 samples.

Results

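DB#3, one of the melanoma lines recovered from a brain site, was compared with D, the dormant melanoma line of the first generation. The comparison used 7 of the 24 arrays of the series, 3 of DB#3 (replicates 3, 4 and 5) and 4 of D (replicates 1 to 4), and the arrays were chosen by the line named in their labels. Both lines derive from B16F1, a mouse melanoma line, and carry green fluorescent protein (GFP), as do the parental line M (3 arrays) and the other brain-derived lines DB#1 (4 arrays) and DB#2 (3 arrays). The other 7 arrays hold myeloid cells labelled M0 and J365 and served here only for the shared estimate of the spread. D was isolated after long residual disease in syngeneic mice under immunotherapy, and DB#3 belongs to a second generation taken from brain. Each line is 1 isolate that was expanded in culture in DMEM with serum before total RNA was extracted, so a difference between DB#3 and D is a difference between a pair of lines and not between brain and other sites. The labels do not say whether the arrays of a line came from separate cultures, so the p-values measure the spread between these arrays. The question the comparison answers is how the transcriptome of a brain-derived isolate differs from that of the dormant line of the preceding generation.

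Tumour dormancy is a state in which residual cancer cells persist without forming a growing lesion. Melanoma cells keep much of the pigment cell programme, which is driven by the transcription factor Mitf, and they can shift between pigmented and invasive states. Brain is a frequent site of melanoma metastasis, where cells meet a matrix poor in collagen and a milieu of neurons, astrocytes and microglia.

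A level is given here as the normalized log2 signal, the log2 intensity of a gene's brightest probe after subtraction of the array's 75th percentile, so that a level of 0 equals that percentile. Read means marked by the scanner software as well above background. Of the 45547 names on the array, 20033 were read throughout D, throughout DB#3 or in both, and were tested. The share of probes read was 43.6% to 53.3% on the other 6 arrays and 89.9% on D replicate 3, whose dim probes were bright, and results that rest on this array are given with and without it. The median SD of a gene within a line was 0.37 in D, 0.28 in D without replicate 3, and 0.20 in DB#3. All 8 pigment cell markers were read on every array, with mean levels of 7.23 to 7.38 in DB#3 and 6.68 to 7.58 in D. Marker lists of blood cells, microglia, neurons, astrocytes, oligodendrocytes, endothelial cells and fibroblasts held 0 called genes. Tested were 6 of 12 blood cell markers, 2 of 6 of microglia, 2 of 7 of neurons and 3 of 6 of astrocytes. For oligodendrocytes it was 5 of 6, for endothelial cells 1 of 6 and for fibroblasts and pericytes 1 of 8. Since 0.369% of all tested genes were called, 0 calls among so few markers says little. The mean levels of these lists on the DB#3 arrays lay between -6.09 and -1.03. On D replicate 3, 6 of 7 neuronal markers were read, against 2 of 7 on each of the other D and DB#3 arrays.

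DB#3 and D differed in few genes. At an adjusted p under 0.05 (limma with Benjamini-Hochberg adjustment, a joint fit over all 24 arrays), 74 of 20033 genes were called (0.369%), 48 higher in DB#3 (0.24%) and 26 lower (0.13%). Of the 74, 56 had a gene symbol, 65 differed at least 2-fold, and 42 were read on every array of both lines. The DB#3 and D arrays did not overlap for 73 of the 74, against 858 of all 20033 genes (4.28%), and the exception was Rab19. The calls were made on these same arrays, so this gap is no separate support for them. The median difference over all genes tested was 0.06 on the log2 scale, with 12329 genes higher and 7704 lower.

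The count depended on the spread shared with the other lines and on the scaling. A fit to the 7 arrays alone called 11 genes (0.0549%), 10 of them among the 74. Among genes described below, Rangrf, Tvp23a, Tmem88, Batf, Nsg1 and Crb2 kept their call in that limma fit. Mocos and Fkbp10 (both adjusted p = 0.0578), Ctsk (0.0662), Ldhd (0.2), Plxna4 (0.284) and Flywch2 (0.396) did not. A fit with the slide as a block called 101 (0.504%), with 72 of the 74 among them. Without D replicate 3, 86 genes were called (0.429%), 55 higher and 31 lower, and 61 of the 74 were among them. The count was 118 without D replicate 1, and 42, 34 and 31 without DB#3 replicate 3, 4 or 5. The split between directions moved with the scaling: against 48 higher and 26 lower, quantile normalization gave 58 and 12, normexp background correction 49 and 9, the percentile over detected probes 35 and 41, and unscaled values 18 and 42. Under every one of these 4 settings 22 of the 74 genes were called. Over all 22 settings other than the main one, 34 of the 74 were called in 15 or more. Abcc2 and Kcnn4 were called in 8 of the 22, H2-M3 and Gm28523 in 7, Rab19 and Nqo1 in 6 and Cd72 in 5.

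**Figure D1:**
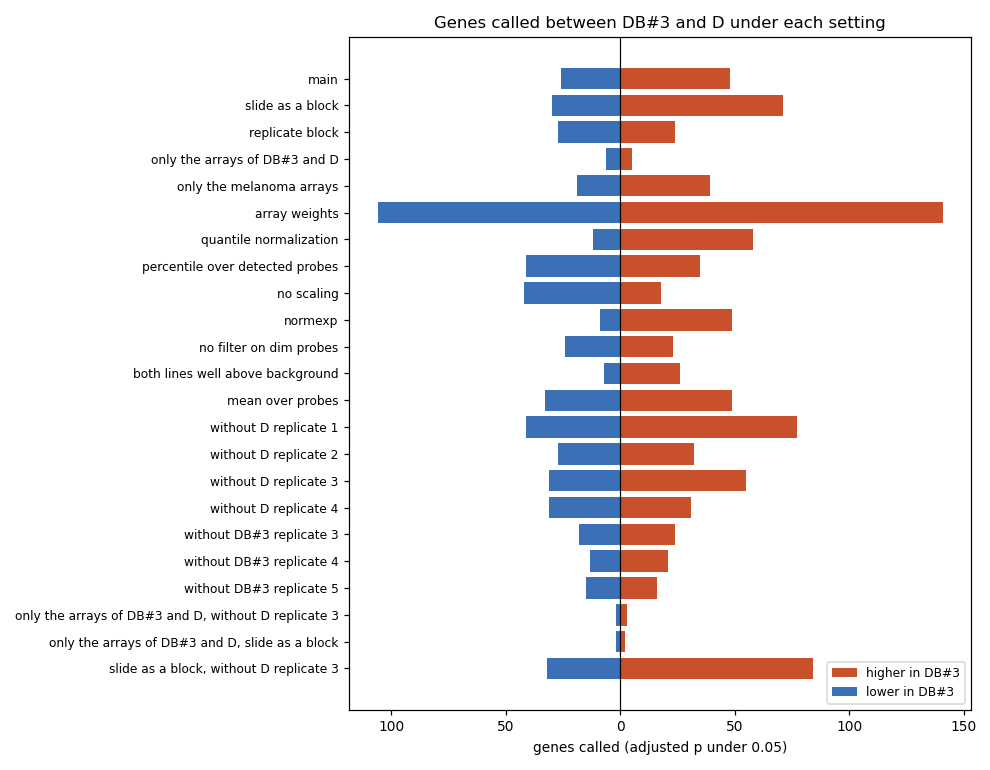
Genes called higher (right, orange) and lower (left, blue) in DB#3 than in D under each setting, at an adjusted p under 0.05, with the number of genes on the x axis. The fit to the arrays of both lines alone gave 11 calls, the joint fit 74 and the fit with array weights 247.

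The largest difference was in Rangrf. Its protein (known as Mog1) binds Ran, a GTPase of nuclear transport, and assists the delivery of a cardiac sodium channel to the membrane. The level of Rangrf was 0.86, 1.03, 0.50 and 0.93 on the D arrays and -4.96, -5.15 and -4.22 on the DB#3 arrays. The arrays were far apart, and the brightest probe was read on 4 of 4 D arrays and on none of the 3 DB#3 arrays (0). DB#3 was lower by a fitted log2 difference of -5.61 ± 0.21 (SE; limma, adjusted p = 6.98e-13), and with DB#3 held at the lowest readable signal the brightest probe was at least 34.7-fold lower. The other 2 probes of Rangrf, each read on 2 of the 3 DB#3 arrays, differed by -3.73 and -4.13, so the transcript was strongly reduced but not below background at all its probes. Rangrf was called in 21 of the 22 other settings, and the 7 arrays alone gave an adjusted p of 0.000384. Levels in M (0.46 ± 0.24, SD, n = 3), DB#1 (0.48 ± 0.17, n = 4) and DB#2 (1.02 ± 0.05, n = 3) lay between 0.46 and 1.02, beside 0.83 ± 0.23 (n = 4) in D.

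Tvp23a, which encodes a Golgi membrane protein of a family linked to vesicle traffic, had the next largest fitted difference among called genes with a symbol. Its level was -2.18, -3.20, -2.07 and -3.14 in D and -6.45, -6.58 and -6.25 in DB#3, where no array read it (0 of 3). The fitted difference was -3.78 ± 0.26 (adjusted p = 4.14e-08), which corresponds to at least 3.11-fold lower once DB#3 is held at the lowest readable signal. A second, dimmer Tvp23a probe was read on 1 D array and on 0 DB#3 arrays and differed by -1.18. Tvp23a stood higher in M (-1.20), DB#1 (-1.37) and DB#2 (-0.80) than in D.

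Neighbouring genes on the chromosome were mostly not called. With 0.44% of placed genes called, 0 calls among 12 neighbours says little, so their differences are given. Among the 12 tested genes nearest to Rangrf on chromosome 11, 6 on each side, 0 were called, and their differences ran from -0.28 to 0.30. Slc25a35 and Pfas, the adjacent tested genes, differed by -0.28 ± 0.24 and 0.02 ± 0.20. The 12 tested neighbours of Tvp23a on chromosome 16 ran from -0.19 to 0.28, with 0 called. Mocos and Fhod3, adjacent on chromosome 18, were both called higher, and the other 11 of the 12 tested neighbours of Mocos were not. Of 12714 tested genes with a place on a chromosome, 56 were called (0.44%): chromosome 6 held 8 of 629 (1.27%), chromosome 18 held 4 of 310 (1.29%), chromosome X held 5 of 396 (1.26%), and chromosome 9 held 0 of 731. These shares are descriptions without a test.

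**Figure D2:**
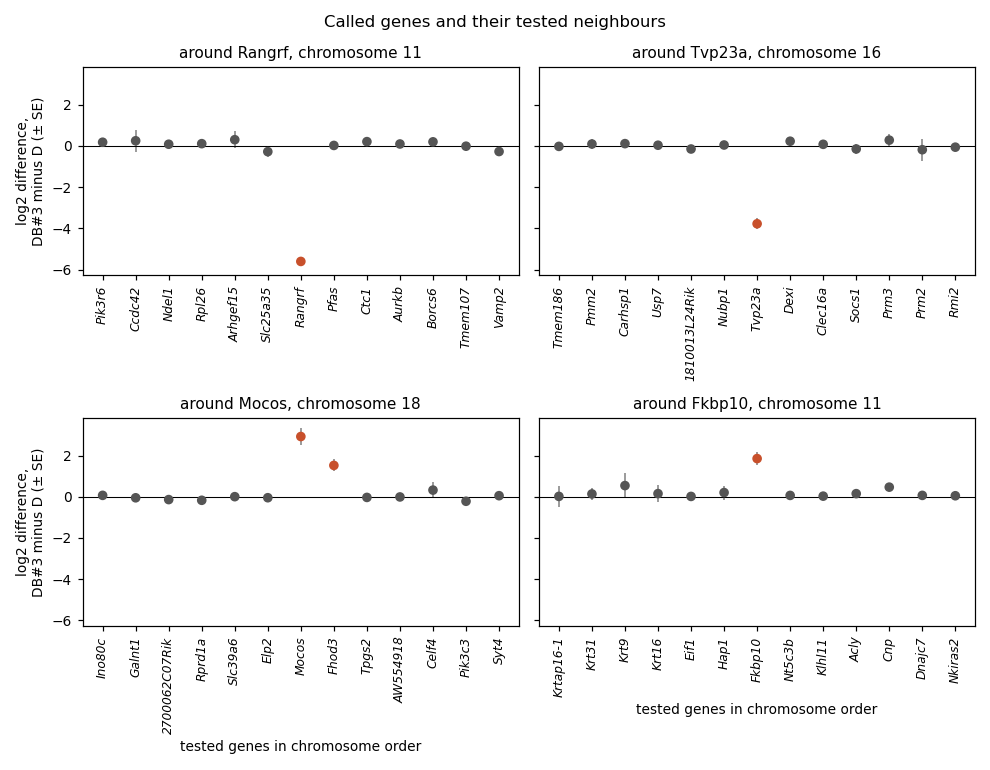
Log2 difference between DB#3 and D (y axis, ± SE) of Rangrf, Tvp23a, Mocos and Fkbp10 and of the 6 tested genes on either side of each, in chromosome order (x axis), called genes in orange. No neighbour shown of Rangrf (-5.61) or Tvp23a (-3.78) was called, and Mocos (2.92) and its neighbour Fhod3 (1.52) were both called higher.

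Of the called genes with a symbol that every D and DB#3 array read, 7 fell without overlap. Flywch2, a member of the FLYWCH zinc finger family, was at -1.28, -2.08, -0.27 and -2.14 in D and at -3.72, -3.45 and -3.49 in DB#3. Its difference was -2.11 ± 0.33 (adjusted p = 0.00277), and -1.71 without D replicate 3, its brightest D array. Plxna4 encodes plexin A, a receptor for semaphorins in axon guidance, and was at -1.47, -1.10, -0.75 and -1.17 in D against -2.33, -2.66 and -3.56 in DB#3. DB#3 replicate 5 was the lowest array, and the difference was -1.73 ± 0.23 (adjusted p = 0.000502). Tmem88, whose protein dampens Wnt signalling at Dishevelled, was at -1.27, -1.35, -0.88 and -1.34 in D and -2.89, -2.85 and -3.02 in DB#3. It differed by -1.71 ± 0.20 (adjusted p = 6.67e-05), and also on the 7 arrays alone (adjusted p = 0.0368). Cnksr2, a scaffold of Ras signalling at synapses, was at -1.66, -1.59, -1.57 and -1.33 in D and -2.97, -2.83 and -2.92 in DB#3. The arrays of each line lay close together, and the difference was -1.37 ± 0.15 (adjusted p = 2.55e-05).

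Abcc2, an export pump for conjugated compounds, fell by 1.51 on the log2 scale (SE 0.32, adjusted p = 0.0419). Its level ran from -1.26 to 0.63 in D and from -2.43 to -1.80 in DB#3, and it was called in 8 of the 22 other settings. The predicted genes Gm10768, next to Abcc2 on chromosome 19, and Gm8032 fell by 1.42 and 1.34. D replicate 1 was the highest array for Gm8032, Gm10768 and Abcc2, at -0.47, -0.47 and 0.63.

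Nqo1 and Gm10487 followed the pattern of Rangrf, read on all D arrays and on no DB#3 array. Nqo1, a quinone reductase induced by the antioxidant regulator Nrf2, was at -1.57, -4.15, -3.84 and -4.19 in D and -5.41, -6.36 and -6.28 in DB#3. D replicate 1 was over 2 log2 units above the rest, and the bound was at least 1.80-fold lower (fitted difference -2.58 ± 0.55, adjusted p = 0.0432; 0.0573 without D replicate 3 and 0.0568 with the slide as a block). Gm10487, a predicted gene of chromosome X, was at least 1.73-fold lower (fitted difference -2.69 ± 0.36, adjusted p = 0.000493). Gm2030, next to it, and Gm1993, next to Gm2030, were likewise read on 4 D arrays and 0 DB#3 arrays and were at least 3.62-fold and at least 2.45-fold lower. Probes of such a predicted gene family may share targets, so the 3 genes are not independent and their values are uncertain.

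The remaining called genes with a symbol fell outside the rule for named genes and are given after their values were seen. Among the falls they were Tslp, a cytokine of epithelial cells that acts on dendritic cells (at least 2.64-fold lower, adjusted p = 0.000105), Masp1, a protease of the lectin pathway of complement (-2.11 ± 0.38), and Tmem74b (-1.35 ± 0.26). Tslp was read on 4 D arrays and 0 DB#3 arrays, Masp1 and Tmem74b on 4 and 1. Masp1 was close to the D values on DB#3 replicate 3 (-3.91, lowest D value -3.39) and lower on replicates 4 and 5 (-6.18 and -5.68).

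**Figure D3:**
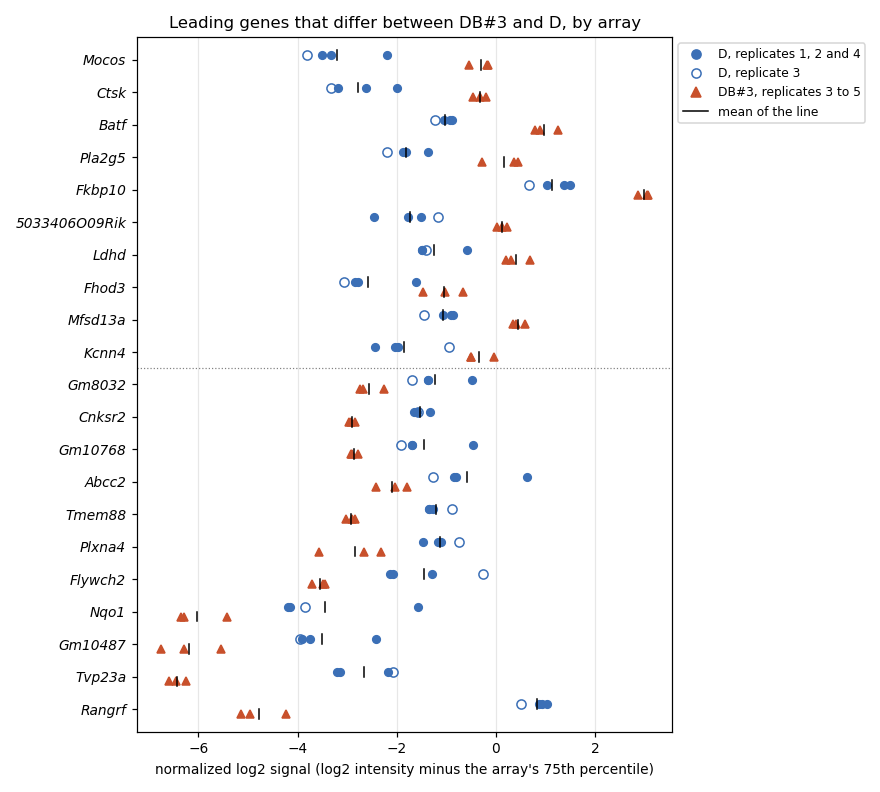
Normalized log2 signal (x axis) of the leading genes on each array of D (blue circles, replicate 3 open) and DB#3 (orange triangles), with the mean of each line as a black bar. Genes above the dotted line were higher in DB#3 and those below lower. The genes were chosen for arrays that do not overlap between the lines, or for being read on every D array and no DB#3 array.

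Of the called genes that every D and DB#3 array read, Mocos rose most. It encodes molybdenum cofactor sulfurase, which activates xanthine dehydrogenase and aldehyde oxidase. Its level was -2.20, -3.33, -3.82 and -3.50 in D and -0.18, -0.54 and -0.15 in DB#3. The lines were well separated although D replicate 1 was above the other D arrays, and the difference was 2.92 ± 0.42 (adjusted p = 0.00108; 2.72 without D replicate 3). Its neighbour Fhod3, a formin that assembles actin filaments, was at -1.61, -2.83, -3.07 and -2.78 in D and -0.66, -1.47 and -1.03 in DB#3. The difference of 1.52 ± 0.29 (adjusted p = 0.0169) had an adjusted p of 0.0524 without D replicate 3. The other 8 tested genes of molybdenum cofactor synthesis and molybdenum enzymes were not called. With 0.369% of all genes called, 0 calls among so few says little. Suox, sulfite oxidase, differed by 0.44 ± 0.23.

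Ctsk encodes cathepsin K, the collagen-degrading protease of osteoclasts. It was at -2.00, -2.63, -3.32 and -3.19 in D and -0.19, -0.46 and -0.32 in DB#3, where the 3 arrays lay close together. The difference was 2.46 ± 0.36 (adjusted p = 0.00111). Ctsk was the 1 called gene of 26 tested cathepsins and lysosomal hydrolases, beside 0.369% of all genes called. The other 25 included Acp5, the acid phosphatase of osteoclasts (0.97 ± 0.28, adjusted p = 0.242).

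Fkbp10, a chaperone of procollagen in the endoplasmic reticulum, was at 1.49, 1.37, 0.67 and 1.03 in D and 3.07, 2.87 and 3.04 in DB#3. It was 3.61-fold higher in DB#3 (log2 difference 1.85 ± 0.33, adjusted p = 0.00859), with D replicate 3 the lowest array. None of the other 17 tested collagen chaperones and hydroxylases was called (0 of 17), beside 0.369% of all genes called. P4ha2, a prolyl hydroxylase subunit, differed by -0.41 ± 0.17. Rcn3, a calcium-binding protein of the same compartment, differed by 0.19 ± 0.37 at its brightest probe and by -0.85 and -0.77 at the other probes. The collagen gene Col1a2 differed by -1.18 ± 0.34 (adjusted p = 0.237).

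Batf, Kcnn4, Cd72 and H2-M3 have known roles in blood cells. The marker list of blood cells held 0 called genes among 6 tested, beside 0.369% of all genes called. Of its 12 markers, 6 to 7 were read on the DB#3 arrays. On D arrays 1, 2 and 4 it was 4 to 7, and on D replicate 3 it was 10. The part of such cells in these rises was not tested. Batf, an AP-1 family transcription factor of lymphocytes, was at -0.93, -0.89, -1.24 and -1.05 in D and 0.78, 0.89 and 1.25 in DB#3. The spread within each line was small, and the difference was 2.00 ± 0.17 (adjusted p = 3.93e-07; 0.0205 on the 7 arrays alone). Kcnn4, a calcium-gated potassium channel, rose by 1.49 ± 0.29 and its D replicate 3 was nearest to DB#3 (-0.95 against -0.51 to -0.04). Cd72, a receptor of B cells, rose by 1.38 ± 0.30 with an adjusted p of 0.0442, and of 0.131 without D replicate 3. Its level was -0.81 on D replicate 1 and -2.54 to -1.92 on the other D arrays, against -0.58 to -0.52 in DB#3. H2-M3, a non-classical class I molecule that presents bacterial peptides, was read on 3 DB#3 arrays and on D replicate 3 alone (1 of 4), with a fitted difference of 1.71 ± 0.35 (adjusted p = 0.0307) and at least 1.82-fold higher without that array. The other 16 tested genes of class I presentation were not called, and Erap1, a peptide-trimming protease, differed by 0.46 ± 0.17. Outside the rule, Arhgdib (1.20 ± 0.17) and Arhgap45 (1.47 ± 0.22), and Ripk3, the kinase of necroptosis (1.26 ± 0.21), also rose. Arhgdib was among the brightest called genes, at 4.73 to 5.56 in D and 6.31 to 6.50 in DB#3.

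Further rises were in enzymes and transporters. Ldhd, the mitochondrial dehydrogenase of D-lactate, was at -0.58, -1.50, -1.41 and -1.50 in D and 0.69, 0.30 and 0.20 in DB#3. It differed by 1.64 ± 0.21 (adjusted p = 0.000282). Pla2g5, a secreted phospholipase, was at -1.38, -1.87, -2.19 and -1.80 in D and -0.28, 0.36 and 0.44 in DB#3, a difference of 1.98 ± 0.34 (adjusted p = 0.007), and a second dim probe read on 1 D array and 0 DB#3 arrays differed by -0.28. Mfsd13a, of the major facilitator superfamily, was at -0.87, -0.91, -1.45 and -1.06 in D and 0.34, 0.41 and 0.59 in DB#3 (1.52 ± 0.14, adjusted p = 3.36e-06). Outside the rule, Gstk1, a mitochondrial glutathione transferase, rose by 1.39, Gpt, alanine aminotransferase, by 1.17, Pon3, a lactonase, by 1.05, and Nat8l, the synthase of the neuronal metabolite N-acetylaspartate, by 1.47. Without D replicate 3 the adjusted p was 0.0863 for Pon3 and 0.0606 for Nat8l, and with the slide as a block it was 0.0568 for Nat8l. The RIKEN gene 5033406O09Rik completed the 10 largest rises among called genes with a symbol that all arrays of both lines read, at 1.85 ± 0.34.

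The other rises outside the rule include genes of cell shape and of the membrane, grouped after the values were seen. The share of such genes among all genes tested was not computed. Palld (1.03), Mtss1 (0.70) and Cyfip2 (0.68) act on actin filaments, and Itpka (0.88) bundles them. Other probes read on all arrays of both lines rose less, by 0.51 and 0.52 for Palld and by 0.38 for Mtss1. Nsg1, an endosomal protein of neurons, was at -4.20, -3.18, -2.85 and -3.05 in D, read on 3 of 4 arrays, and at -0.61, -0.59 and -0.31 in DB#3 (2.82 ± 0.23, adjusted p = 3.93e-07). Crb2, a Crumbs polarity protein, was read on 2 of 4 D arrays and rose by 2.43 ± 0.19 (adjusted p = 2.6e-07), and Pdzk1ip1, a small membrane protein of epithelia, was read on 2 of 4 and rose by 2.66 ± 0.38. Further rises were in Cxadr, a junction receptor (1.13), Podxl2, a sialomucin (1.01), Tspan7, a tetraspanin (0.70), Hpn, a membrane serine protease (0.77), Gng11 (1.08) and Rgs7bp (0.92), both of G protein signalling, Cort, the neuropeptide cortistatin (1.21), Bok, of the Bcl family (0.87), Nol4 (1.29) and Ttc28 (0.64). Palld, Podxl2, Hpn, Gng11, Rgs7bp and Ttc28 missed the threshold without D replicate 3, where their adjusted p was 0.0691 to 0.0919 (differences 0.62 to 0.99). Epas1, a subunit of the hypoxia-inducible factors, was at -0.43, 0.57, -0.07 and 0.25 in D and 0.95, 1.27 and 1.39 in DB#3 (1.12 ± 0.18, adjusted p = 0.0036).

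A group of genes read on all DB#3 arrays was read in D on replicate 3 alone. Besides H2-M3 these were Gm28321, Rab19, a small GTPase, and Gm28523, with fitted differences of 3.05 ± 0.53, 2.41 ± 0.50 and 1.39 ± 0.27 that set DB#3 against D arrays mostly below the readable level. Without D replicate 3 no D array read them (0 of 3), and DB#3 was at least 6.05-fold higher for Gm28321, at least 2.62-fold for Rab19 and at least 1.43-fold for Gm28523. Rab19 was at -3.02 on D replicate 3, within the DB#3 range of -3.05 to -2.44, and at -6.48 to -5.17 on the other D arrays.

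Where 250 bases before a transcription start were listed for a called gene (39 of the 74 genes, RefSeq, assembly GRCm38.p6), they were searched on both strands for 4 motifs. The palindrome CACGTG is bound by Mitf and related factors. The variant CATGTG is bound by Mitf in pigment cell genes. The letters TGANTCA are the site of AP-1 factors. The shorter ACGTG is the core of the hypoxia response element and lies within the palindrome. CATGTG was in 6 of 38 starts of genes called higher (15.8%) and 1 of 13 of genes called lower (7.69%), against 7.82% of the 12979 starts of tested genes. The palindrome was in 5 of 38 and 0 of 13, against 8.24%, the AP-1 motif in 3 and 0, against 4.41%, and the hypoxia core in 10 and 1, against 21.4%. Several starts can belong to the same gene. A match is a description of the letters and not of a bound site. The sequences of Ctsk, Batf and Ldhd are shown, 5′ to 3′, so that the matches can be seen in place. These are examples and not the largest rises with a listed start. Pla2g5 (1.98) and 5033406O09Rik (1.85), among others, rose more than Ldhd (1.64) and are not shown. The start of 5033406O09Rik held the AP-1 motif. Capitals mark the variant motif in Batf and the palindrome in Ldhd, and Ctsk held none of the 4 motifs.
Ctsk, chr3:95498960-95499209, plus strand: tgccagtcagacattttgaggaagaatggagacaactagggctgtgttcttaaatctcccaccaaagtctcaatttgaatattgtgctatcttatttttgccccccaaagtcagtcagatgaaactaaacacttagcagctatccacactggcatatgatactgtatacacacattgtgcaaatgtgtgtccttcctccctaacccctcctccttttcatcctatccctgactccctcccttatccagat
Batf, chr12:85686470-85686719, plus strand: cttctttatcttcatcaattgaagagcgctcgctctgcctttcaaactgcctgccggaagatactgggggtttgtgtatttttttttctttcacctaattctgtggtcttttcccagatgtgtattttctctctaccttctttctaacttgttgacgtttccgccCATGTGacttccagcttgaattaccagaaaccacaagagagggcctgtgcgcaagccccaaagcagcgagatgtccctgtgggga
Ldhd, chr8:111630337-111630586, minus strand: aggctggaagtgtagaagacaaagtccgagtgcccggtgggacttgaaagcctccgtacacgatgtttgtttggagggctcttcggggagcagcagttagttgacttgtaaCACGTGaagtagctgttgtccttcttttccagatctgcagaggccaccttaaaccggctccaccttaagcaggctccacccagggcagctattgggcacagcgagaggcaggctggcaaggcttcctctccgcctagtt

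The other melanoma lines show where these levels lie. The comparisons below share the DB#3 or the D arrays with the main one, so they are set side by side and not counted together. DB#3 differed from DB#1 in 47 of 20556 genes (0.229%), from DB#2 in 931 of 20978 (4.44%) and from M in 569 of 20581 (2.76%), and D differed from M in 598 of 20145 (2.97%). Since no DB#3 array read the brightest probe of Rangrf or Tvp23a, their differences are bounds. Rangrf was at least 26.9-fold lower in DB#3 than in M, at least 27.2-fold lower than in DB#1 and at least 39.6-fold lower than in DB#2 (adjusted p 3.29e-12, 2.95e-12 and 1.72e-12). Tvp23a was at least 8.50-fold, 7.56-fold and 11.2-fold lower. Plxna4 was lower in DB#3 than in M by -1.67, DB#1 by -2.05 and DB#2 by -3.19 (adjusted p 0.000234, 4.74e-05 and 4.14e-08). Flywch2 was lower by -1.65, -2.23 and -3.48. Ctsk was higher in DB#3 than in M by 2.81, DB#1 by 3.18 and DB#2 by 1.58 (adjusted p 7.81e-05, 4.46e-05 and 0.0192).

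For some other called genes the difference from DB#1, DB#2 or both was small beside its SE, and for others it was not. Batf was at 0.97 ± 0.24 (SD, n = 3) in DB#3, 0.96 in DB#1 and 0.83 in DB#2, against -1.02 ± 0.16 (n = 4) in D and -1.62 in M. Its difference between DB#3 and DB#1 was 0.01 ± 0.17 (SE), and between DB#3 and DB#2 0.15 ± 0.18. Gstk1 and Cyfip2 differed from DB#1 by 0.03 and 0.03 and from DB#2 by -0.04 and -0.05, with SEs of 0.13 to 0.24. Fkbp10 was at 2.99 in DB#3 and 2.95 in DB#1 but at -1.15 in DB#2 and -3.53 in M, a difference from M of 6.52 in DB#3 and 4.67 in D. Crb2 and Cd72 were lower in DB#3 than in DB#1, by -1.26 and -1.80 (adjusted p 0.00174 and 0.00538). Cd72 was also lower in DB#3 than in DB#2, by -1.43 (adjusted p 0.00978). Tmem88 was at -3.16 in DB#2 and -2.92 in DB#3 (difference 0.24 ± 0.21), and at -0.90 in DB#1.

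The parental line stood on either side. Mfsd13a was at 0.60 in M and 0.45 in DB#3, and D was the low line (D minus M, -1.68, adjusted p = 1.72e-07). Cnksr2 was at -3.23 in M and -2.91 in DB#3, and D was the high line (1.69, adjusted p = 2.36e-07). Ripk3 was read on none of the M arrays (0 of 3), and its level was -6.31 in M, -2.88 in D and -1.62 in DB#3. Mocos was at -2.07 in M, -2.11 in DB#1 and -1.80 in DB#2, above D and below DB#3. It differed between DB#3 and M by 1.78 (adjusted p = 0.0353), and from DB#1 by 1.82 ± 0.42 and DB#2 by 1.51 ± 0.45 (adjusted p 0.121 and 0.0681). The predicted genes Gm2030, Gm1993 and Gm10487 were at -0.38, -1.10 and -1.29 in M and at -4.66, -4.52 and -5.04 in DB#1, where 1, 1 and 0 of 4 arrays read them.

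**Figure D4:**
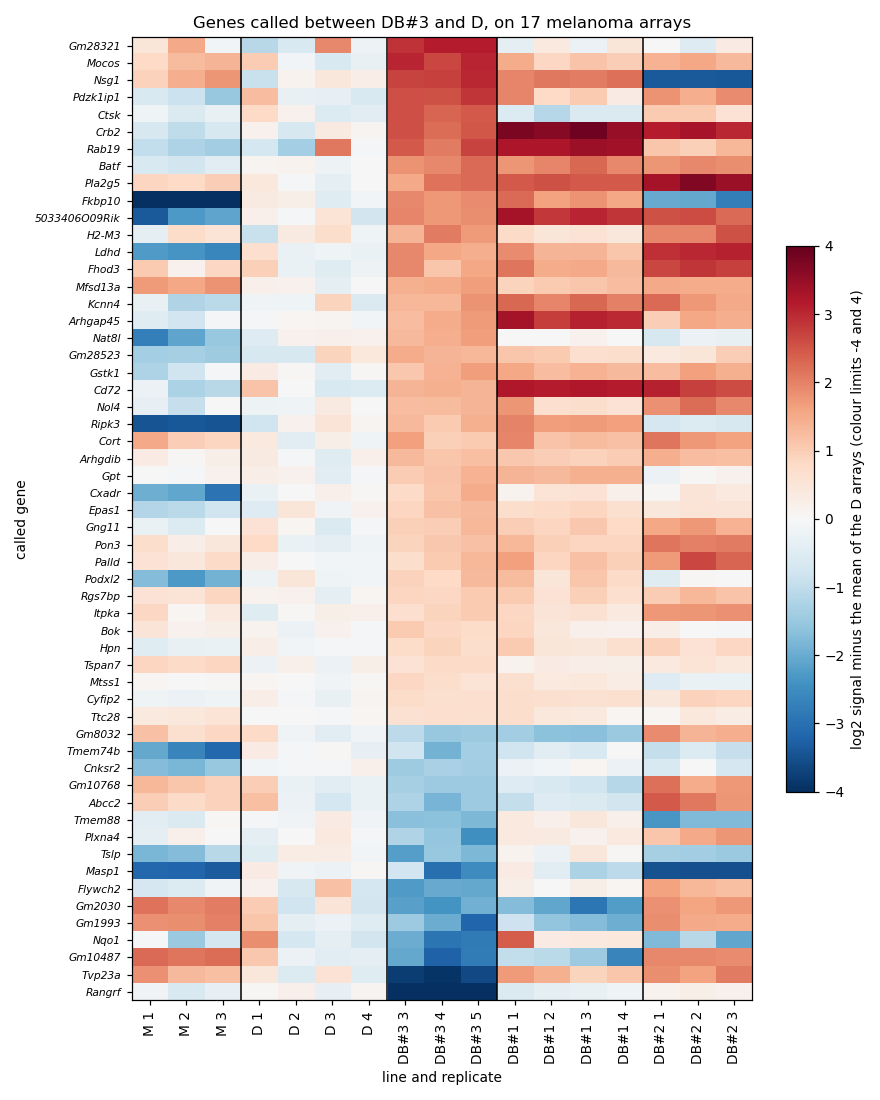
Levels of the 56 called genes with a symbol (rows) on the 17 melanoma arrays (columns), as the log2 signal minus the mean of the D arrays, red above and blue below, with colours ending at -4 and 4. Batf and Gstk1 are alike in the brain-derived lines, and the DB#3 arrays are the lowest for Rangrf and Tvp23a.

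Likeness to other genes was measured by Pearson's r over the 17 melanoma arrays, among 13227 other genes with a symbol, as a description in which the arrays share lines and slides. Mocos was most like Sytl4 (r = 0.90) and Akr1c12 (0.82), Ctsk like Zfp979 (0.84) and Mocos (0.77), and Batf like Gstk1 (0.96) and Crb2 (0.95). Among the falls, Flywch2 was most like Plxna4 (0.90) and Rhox5 (0.86), Plxna4 like Tgtp2 (0.91) and Flywch2 (0.90), and Tmem88 like Schip1 (0.88) and Slc27a3 (0.85).

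Of 25 gene lists, 7 held 1 called gene each and 18 held none (0). The called members were Mocos (molybdenum enzymes), Ctsk (cathepsins), Fkbp10 (collagen chaperones), H2-M3 (class I presentation), Plxna4 (plexins and semaphorins), Ldhd (glycolysis and lactate) and Nqo1 (glutathione and Nrf2 targets). Mocos, Ctsk, Plxna4 and Fkbp10 were known from earlier results of these data when the lists were chosen, so their calls are not findings of the lists. The lists with a call had 9 (molybdenum), 17 (class I), 18 (collagen chaperones), 23 (glycolysis), 25 (plexins), 26 (cathepsins) and 26 (glutathione) tested genes. Over all genes 0.369% were called, so 0 or 1 call in a list of this size says little. The share in each of the lists with a call rests on 1 gene. Over the lists, medians ran from -0.34 to 0.22. Unscaled values lowered the median of all genes from 0.06 to -0.15, and list medians are read against it.

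The hypoxia list stood lowest. Its median difference was -0.34 over 16 tested genes, against 0.06 over all genes, and 15 of 16 members were lower in DB#3, where 38.5% of all genes were. No member was called (0 of 16), and 4 had an unadjusted p under 0.05 in limma. Ddit4, an inhibitor of mTOR signalling induced by stress, was at 3.67, 3.44, 2.56 and 2.85 in D and 2.36, 1.44 and 1.64 in DB#3 (-1.32 ± 0.33, adjusted p = 0.126, and 0.0487 with the slide as a block). Adm, the vasodilator adrenomedullin, was at 0.38, 0.28, -0.81 and -0.66 in D and -1.35, -1.72 and -1.22 in DB#3 (-1.22 ± 0.33, adjusted p = 0.188). The list's median was -0.50 without D replicate 3. It lay between -0.55 and -0.28 with the slide block, both lines alone, the other scalings, normexp and no filter on dim probes. The median was not computed under the remaining settings, which include array weights, the replicate block and each other array left out.

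Interferon-stimulated genes were lower in 16 of 24 members, with a median of -0.17 and 0 calls. Rtp4 differed by -1.16 ± 0.26 (adjusted p = 0.0587) and Oas1f by 0.96 ± 0.28 (0.27). The adjusted p of Rtp4 was 0.0363 with the slide as a block, 0.0337 with the percentile over detected probes and 0.00718 unscaled, and 0.716 after quantile normalization. Quantile normalization gave a median of 0.05, so the direction of this list depended on the scaling.

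Pigment cell genes differed little. In the list of melanin synthesis the median was 0.10 over 15 genes, with 0 calls, and Trpm1, a channel of the pigment lineage, was at 4.11, 1.52, 1.49 and 1.95 in D and 2.17, 0.81 and 0.67 in DB#3. Trpm1 differed by -1.05 ± 0.59 at its brightest probe and by -1.67 to -1.09 at the other 5, and was not called (adjusted p = 0.998). Slc7a11, the cystine transporter, differed by 0.85 ± 0.74. Melanosome trafficking had a median of 0.07 (Myo5a 0.14, Hps1 0.15), and lineage factors and receptors 0.12 (Met 0.84 ± 0.22, Sox10 0.27 ± 0.15). The list of the undifferentiated and invasive state had a median of -0.08, with Snai2 at -0.46 ± 0.18 and Ccn2 at -0.39 ± 0.20.

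Lists of growth and dormancy held no calls either. Of 30 cell cycle genes, 27 were higher, with a median of 0.17 and differences of -0.46 to 0.31 (Aurka 0.30, Ccnb2 0.30), and under unscaled values the median was -0.04. Kinase inhibitors had a median of 0.09 (Cdkn3 0.36, Cdkn2d 0.38), and regulators of TGF-beta, BMP and dormancy 0.15, with Lifr, the receptor of leukemia inhibitory factor, at 0.88 ± 0.26 (adjusted p = 0.302) and Smad3 at 0.26. Notch and Wnt genes had a median of 0.19 (Tcf7 0.88 ± 0.27, Fzd7 -0.32), and chemokines and cytokines 0.07 (Lifr again, and Cx3cl1 at -0.54 ± 0.28).

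For adhesion and matrix, the medians were 0.17 for integrins and cadherins (Cdh19 0.46, Itga5 0.35) and 0.13 for collagens and matrix proteins (Emilin1 0.70 ± 0.21). They were 0.22 for matrix proteases and inhibitors (Adam15 0.61, Timp1 0.58), and 0.14 for genes associated with brain metastasis (Gja1 0.42, L1cam 0.45). At their other, dimmer probes, Gja1 differed by -0.39 and 0.38 and L1cam by 0.07 and 0.03. The plexin list had a median of 0.14 beside the fall of Plxna4, and Sema3e, a ligand of plexins, differed by -0.82 ± 0.24. In metabolism, sterol and fatty acid synthesis had a median of 0.06 (Dhcr7 0.39), and glycolysis and lactate 0.13 (Hk1 0.77 ± 0.26). A dimmer Hk1 probe, read on 4 D and 2 DB#3 arrays, differed by -0.63. Amino acid stress had a median of -0.01 (Nupr1 -1.02 ± 0.64), and glutathione genes 0.11 (Gstt2 -1.08 ± 0.28). In the lipid list, with a median of 0.10, Fabp3, a fatty acid carrier of muscle, was 1.92 ± 0.43 higher at its brightest probe and 2.02 at the other. Its adjusted p in limma was 0.0612, 0.0482 on the 7 arrays alone and 0.0387 with the slide as a block. It was 0.079 without D replicate 3, 0.171 with the percentile over detected probes and 0.288 unscaled. Fabp3 was called in 7 of the 22 other settings. Clu, a chaperone of lipoproteins, differed by -1.22 ± 0.45 (adjusted p = 0.634) and Mgll, a lipase of monoacylglycerols, by 0.31 ± 0.36.

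**Figure D5:**
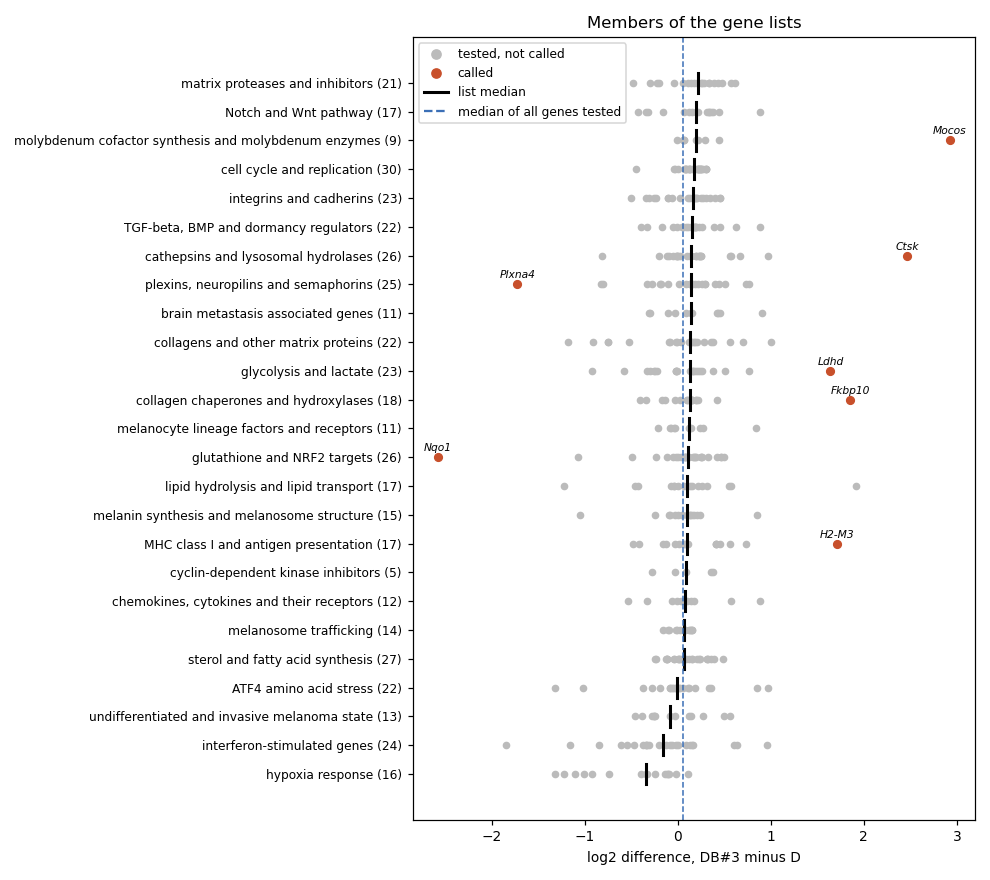
Log2 difference between DB#3 and D (x axis) of each tested member of the 25 gene lists (rows, number tested in parentheses), with called members in orange, the list median as a black bar and the median of all genes tested (0.06) as a dashed line. The hypoxia list has the lowest median (-0.34), and the called members run from -2.58 (Nqo1) to 2.92 (Mocos).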

How the data were processed

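Single-colour Agilent mouse arrays were read from the deposited scanner files, in which the authors gave each spot an intensity from Agilent Feature Extraction 10.7.3.1 (per the submitters' processing notes), already background-subtracted. The deposited series table held the same intensity values (1511424 of 1511424). Control spots and outlier flags were left out (117 probes lost, 56488 kept), spots of a probe were averaged on the log2 scale, and each array's 75th percentile was subtracted from the log2 values computed from the deposited intensities. The brightest probe stood for a gene. RefSeq accessions named 32912 probes with 22877 symbols (assembly GRCm38.p6). The array was designed on another build, so no probe coordinates are given. Lines were taken from the labels. Differences came from limma 3.58.1 in R 4.3.3, with a term for each of 7 lines over 24 arrays (17 residual degrees of freedom), two-sided, adjusted by Benjamini-Hochberg at 0.05. The number of arrays limits the precision. A bound ("at least") sets the line that did not read the probe at the lowest readable signal of its arrays. The procedure was tested on simulated data.

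Members and gene lists were chosen with earlier results of these data known. Named genes were the 10 largest rises and falls among called genes with a symbol, read on all arrays of both lines without overlap (36 qualified, 7 of them falls), the 4 largest in each direction read in full in 1 line and in none of the other (D replicate 3 aside), called list members and the 2 members of each list with the smallest p, and Mocos, Ctsk, Flywch2, Plxna4, Fkbp10, Rcn3, Clu, Cd72 and Mgll. A list member that this rule selects is not reported here. Alternatives were the scaling, normexp on the median signal (a mean signal column was not used here), the filter, the probe rule, array weights, slide and replicate blocks, fewer arrays, and each array left out. Fits of the 7 arrays without D replicate 3 or with the slide, and the slide block without D replicate 3, were chosen after seeing the data.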

Additional observations from a re-analysis of the deposited data

Results flagged for a closer look

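In 9 of the 69 named genes, 1 D array lay far from the other 3, by Dixon's criterion, which chance meets in about 1 in 20 groups. In 7 of the 9 it was D replicate 1. That array was at 3.92 for Nupr1 (others 0.19 to 0.73), 2.09 for Slc7a11 (others -1.41 to -0.86), 1.87 for Mgll (others -0.10 to 0.14) and -1.57 for Nqo1 (others -4.19 to -3.84). It was at -2.42 for Gm10487 (others -3.94 to -3.74), -0.47 for Gm10768 (others -1.91 to -1.70) and -0.58 for Ldhd (others -1.50 to -1.41). D replicate 3 was apart for P4ha2, at 1.76 (others 2.32 to 2.35), and Tmem88, at -0.88 (others -1.35 to -1.27). D replicate 1 had the lowest share of probes read, 43.6%, and the highest mean signal of negative controls, 36.1. The part of either in these values was not tested.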

How the results depend on the processing

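Against 74 genes called (48 higher, 26 lower in DB#3), array weights gave 247 (141 and 106), the 7 arrays alone 11 (5 and 6), no filter on dim probes 47 (23 higher), both lines required above background 33 (26 and 7), and an adjusted p under 0.01 gave 37 (23 and 14). Of the settings chosen after seeing the data, the 7 arrays without D replicate 3 gave 5 (3 and 2), the 7 arrays with the slide 4 (2 and 2), and the slide block without D replicate 3 gave 116 (84 higher). Leaving out 1 array at a time gave 31 to 118 calls, 16 to 77 higher and 13 to 41 lower. The count moved by over 1.5 times without D replicate 1 (118) and without DB#3 replicate 3, 4 or 5 (42, 34 and 31). Scaling moved the split: of the calls, 64.9% were higher by the main scaling, 82.9% by quantile normalization (12 lower), 84.5% by normexp (9 lower), 46.1% by the percentile over detected probes (41 lower) and 30.0% unscaled (18 higher, 42 lower). The cause was not tested. Among called named genes, the difference changed sign within a slide for Rab19 (-0.039 on slide 2, where D replicate 3 lies). Among those not called it did so for Slc7a11 (-0.61), Mgll (-0.30) and Myo5a (-0.03) on slide 1, P4ha2 (0.04) on slide 2, and Nupr1 (1.19), Trpm1 (0.23), Rcn3 (-0.54), Ccnb2 (-0.06), Sox10 (-0.01) and Aurka (-0.01) on slide 3. Called named genes stayed past the threshold in 371 values and lost it in 193, and those not called passed it in 32. Each slide was 1 scan, so no separate scan block was run.

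Replicate numbers did not pair the arrays: the 2 same-numbered pairs correlated at 0.07 and 0.63 in their deviations, and same-slide pairs at 0.22 to 0.77. The fit with the replicate block gave 51 calls, 24 higher and 27 lower, with 38 of the 74 among them.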
